A study of Mus musculus with 12 samples.

Results

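*Arntl*, *Clock* and *Npas2* encode the activators of the circadian clock, and their mRNA was followed in mouse liver over the light:dark cycle. They were taken by gene symbol from a table of 20069 genes, where each symbol has 1 row, so that 3 of 20069 genes are described. All 3 passed the minimum for expressed genes, a value above 8 reads per base pair (rpbp) in at least 1 sample, as did 10198 genes of the table. *Clock* passed it in all 12 samples and *Arntl* in 7. *Npas2* passed it in 1 sample alone (ZT22 of series 1). The rpbp is the mean coverage of the exon bases of a gene, put on a scale of 40000000 uniquely mapped sequences.

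The samples are liver of C57BL/6 wild-type male mice, 3 to 6 months old, which had been in a cycle of 12 hr light and 12 hr darkness for at least 2 weeks. No other genotype or treatment was included. Poly(A) RNA was sequenced every 4 hr from ZT2 to ZT22. Zeitgeber time (ZT) counts hours from lights on, and lights went off at ZT12. Each time point has 1 sample in each of 2 independent series, so that n = 2 per time point and n = 12 in all. The labels do not say how many animals a sample holds, and p-values measure the spread between these samples. With 2 samples against 2, no time point was tested against another. The question was how deep the trough of each gene is, when each gene peaks, and how much mRNA of the partners *Clock* and *Npas2* there is.

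BMAL1, the product of *Arntl*, binds DNA as a heterodimer with CLOCK or with NPAS2. All 3 proteins belong to the bHLH-PAS family, in which a basic helix-loop-helix region contacts the E-box and PAS domains hold the partners together. The dimers activate the *Per* and *Cry* genes, whose products then repress them, and also the *Nr1d1* and *Nr1d2* genes. NR1D1 and NR1D2 (REV-ERB alpha and beta) repress, and the ROR receptors activate, genes with ROR elements, among which *Arntl* is the textbook case. CLOCK is the partner best known in the liver, while NPAS2 was first described in the brain and can stand in for CLOCK.

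The promoters are shown because the mRNAs of the 3 genes had their fitted peaks near the same time and because the *Arntl* promoter is known for its ROR elements. The sequences are from RefSeq (table of GRCm38.p6) and run from 250 bases before to 50 after a transcription start, 5′ to 3′ on the strand of the gene. Each was found at 1 place of its chromosome in the mm9 genome, chr7:120350775-120351074 (plus strand) for *Arntl*, chr5:76733768-76734067 (minus strand) for *Clock* and chr1:39250867-39251166 (plus strand) for *Npas2*. Of 2 *Arntl* windows the 1 with more matches is shown, and of 3 *Clock* windows 1 without a match. The other windows are described below. Capitals mark GTAGGTNA, a longer form of the ROR element core AGGTCA.

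Arntl: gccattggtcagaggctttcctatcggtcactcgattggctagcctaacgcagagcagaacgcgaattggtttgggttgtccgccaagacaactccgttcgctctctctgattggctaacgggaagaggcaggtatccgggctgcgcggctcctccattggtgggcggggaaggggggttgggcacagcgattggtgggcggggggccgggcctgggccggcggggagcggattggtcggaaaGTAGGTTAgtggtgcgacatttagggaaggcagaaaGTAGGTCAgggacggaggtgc
Clock: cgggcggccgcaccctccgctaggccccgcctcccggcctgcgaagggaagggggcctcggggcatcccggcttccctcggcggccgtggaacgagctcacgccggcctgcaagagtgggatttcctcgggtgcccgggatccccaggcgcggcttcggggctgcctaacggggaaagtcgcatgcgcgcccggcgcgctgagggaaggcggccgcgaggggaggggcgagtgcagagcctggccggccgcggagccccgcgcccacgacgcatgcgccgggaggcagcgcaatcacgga
Npas2: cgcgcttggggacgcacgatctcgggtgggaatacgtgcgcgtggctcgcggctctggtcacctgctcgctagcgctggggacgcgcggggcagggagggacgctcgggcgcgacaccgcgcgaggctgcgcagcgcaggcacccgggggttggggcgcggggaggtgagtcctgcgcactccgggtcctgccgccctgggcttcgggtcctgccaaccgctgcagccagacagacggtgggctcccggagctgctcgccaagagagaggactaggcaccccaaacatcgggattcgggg

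GTAGGTNA was found in the *Arntl* window at 7 bases before the start (GTAGGTTA) and again at position 30 after it (GTAGGTCA). The latter contains AGGTCA and also its extended form TAGGTCA, so that these matches overlap. The *Clock* and *Npas2* windows hold none of these 3 motifs, nor the E-box CACGTG, on either strand, and the *Arntl* window holds no CACGTG. *Arntl* has 1 other RefSeq start, whose window holds GTAGGTTA alone, at position 40 after that start, and no AGGTCA. Among 2 other RefSeq starts of *Clock*, AGGTCA occurs once, on the other strand. The same letters on either strand occur in 16.3% (AGGTCA), 2.61% (TAGGTCA), 2.14% (GTAGGTNA) and 7.15% (CACGTG) of the 32851 mouse windows of this length. GTAGGTNA was chosen after the *Arntl* sequence had been seen, and a match of letters does not show binding.

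In the mm9 annotation (GENCODE), *Arntl* (ENSMUSG00000055116.6) lies at chr7:120350979-120457636 on the plus strand, with 3 transcripts whose merged exons cover 2925 bases. *Clock* (ENSMUSG00000029238.7) lies at chr5:76639992-76733817 on the minus strand, with 4 transcripts and 8832 exon bases. *Npas2* (ENSMUSG00000026077.9) lies at chr1:39250576-39420079 on the plus strand, with 3 transcripts and 4789 exon bases. Reads were counted without regard to strand, and no other annotated gene overlaps the exons of these genes.

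*Arntl* mRNA was lowest at ZT6 and ZT10, within the light phase, and stood high from ZT18 to ZT2. In series 1 it was at 23.60 rpbp at ZT2, 1.12 at ZT6, 2.84 at ZT10, 7.76 at ZT14, 23.48 at ZT18 and 25.80 at ZT22. In series 2 it was at 22.20 rpbp at ZT2, 2.08 at ZT6, 4.44 at ZT10, 12.88 at ZT14, 29.40 at ZT18 and 27.68 at ZT22. The 6 samples of ZT2, ZT18 and ZT22 all lay above the 6 others, and both samples of ZT6 lay below those of every other time point. The samples of ZT18 overlapped those of ZT2 and of ZT22, but both samples of ZT2 lay below both of ZT22. The top was thus level within the replicate spread from ZT18 to ZT22.

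The lowest time point was ZT6 with 1.60 ± 0.679 rpbp (SD, n = 2) and the highest ZT22 with 26.74 ± 1.33 rpbp, a 16.71-fold difference. The trough was thus at 5.98% of the highest time point. From ZT2 to ZT6 the mean dropped by 21.30 rpbp, which is the largest step between neighbouring time points. The rise was spread over 3 steps, of 2.04 rpbp to ZT10, 6.68 to ZT14 and 16.12 to ZT18.

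*Clock* mRNA had the shallowest trough and was never low. In series 1 it was at 35.08 rpbp at ZT2, 17.84 at ZT6, 17.40 at ZT10, 27.00 at ZT14, 34.68 at ZT18 and 38.20 at ZT22. In series 2 it was at 39.84 rpbp at ZT2, 16.20 at ZT6, 17.40 at ZT10, 27.36 at ZT14, 35.76 at ZT18 and 36.96 at ZT22. The samples of ZT6 and ZT10 overlapped each other and lay below all others, those of ZT14 were between, and those of ZT2 overlapped those of ZT18 and of ZT22.

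*Clock* was at 17.02 ± 1.16 rpbp (SD, n = 2) at ZT6 and at 37.58 ± 0.877 rpbp at ZT22, a 2.21-fold difference. Its trough was at 45.3% of its highest time point. It dropped by 20.44 rpbp from ZT2 to ZT6, about as far as *Arntl*, and rose by 9.78 rpbp from ZT10 to ZT14 and by 8.04 rpbp from ZT14 to ZT18.

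*Npas2* mRNA was scarce and was close to or at 0 from ZT6 to ZT14. In series 1 it was at 4.36 rpbp at ZT2, 0.360 at ZT6, 0 at ZT10, 0 at ZT14, 3.84 at ZT18 and 10.24 at ZT22. In series 2 it was at 3.28 rpbp at ZT2, 0.0400 at ZT6, 0.120 at ZT10, 0 at ZT14, 4.60 at ZT18 and 6.36 at ZT22. The samples of ZT22 were above all others, those of ZT2 and ZT18 overlapped, and the 6 samples from ZT6 to ZT14 were the lowest.

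The table is written in steps of 0.0400 rpbp on this scale, and *Npas2* is listed at 0 in 3 samples, so that no fold over the trough is given. ZT22 had 8.30 ± 2.74 rpbp (SD, n = 2). ZT2 and ZT18 stood at 46.0% and 50.8% of that level, and ZT6, ZT10 and ZT14 at 2.41%, 0.723% and 0%. *Npas2* had thus not yet risen at ZT14, where *Arntl* was at 38.6% and *Clock* at 72.3% of their highest time points.

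**Figure D1:**
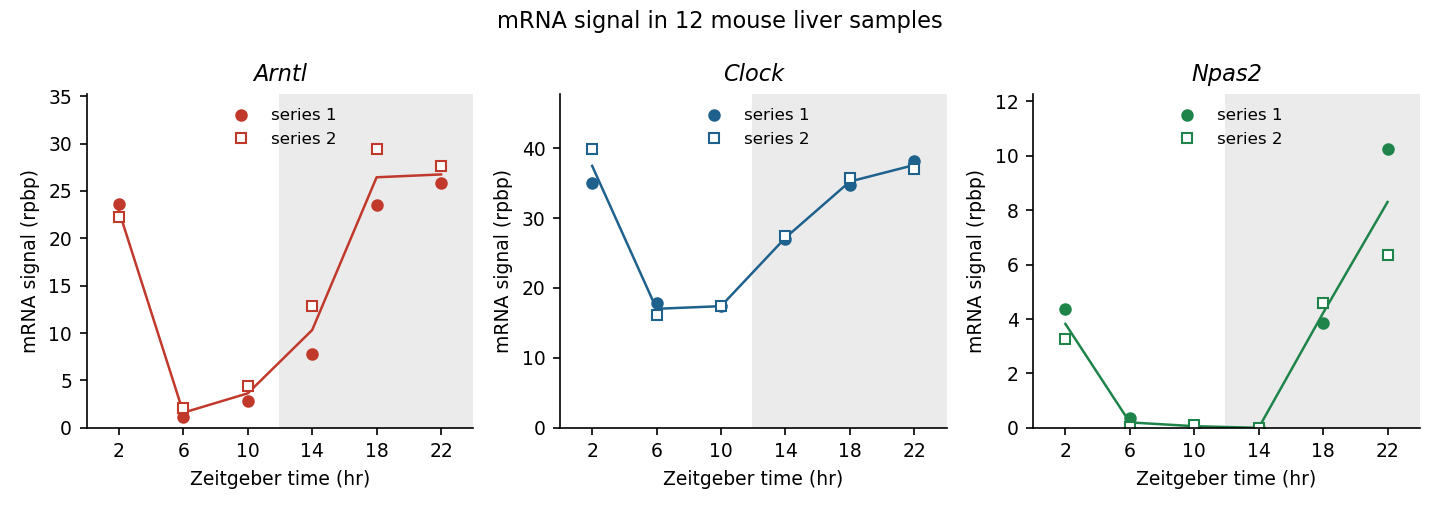
mRNA signal in rpbp against zeitgeber time in hr for each gene; filled circles are series 1, open squares series 2, the line joins the means of 2 samples, grey marks darkness, and each panel has its own scale. *Arntl* drops to 1.60 rpbp at ZT6, *Clock* stays at 16.20 rpbp or more, and *Npas2* is at most 0.360 rpbp from ZT6 to ZT14.

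The rhythm was measured by F24, the share of the variance of the 12 values taken by a cosine with a period of 24 hr. A gene was called rhythmic with a permutation p below 0.05, an F24 above 0.45 and an amplitude (highest over lowest value) above 1.5, and strongly rhythmic under stricter limits for F24 (0.6) and for the amplitude. Of all expressed genes, 19.2% were rhythmic, 7.89% strongly so, and 4.95% rhythmic with a p adjusted over the 10198 genes below 0.05. *Arntl* and *Clock* were strongly rhythmic and also passed with the adjusted p. *Npas2* met the same limits, but it was tested only because of its value at ZT22 of series 1, and ZT22 is its highest time point.

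*Arntl* had an F24 of 0.914 (permutation p = 2e-04, adjusted p = 0.0144), which ranks 38 among the 10198 expressed genes. *Clock* had an F24 of 0.871 (permutation p = 0.0011, adjusted p = 0.0316) and ranks 112. *Npas2* had an F24 of 0.827 (permutation p = 8e-04, adjusted p = 0.0279), which is given as a description since it was tested through its own peak. The component of 12 hr took 0.991% of the variance of *Arntl*, 9.0% of that of *Clock* and 10.2% of that of *Npas2*.

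The series taken alone hold 6 values each, and their 720 orders allow an exact permutation test. In series 1 and series 2 the exact p was 0.0667 and 0.0667 for *Arntl*, 0.05 and 0.183 for *Clock*, and 0.0333 and 0.10 for *Npas2* (n = 6), which in series 2 alone is under the minimum for expressed genes. The F24 of the series alone lay between 0.823 and 0.951. The calls at 0.05 of *Arntl* and *Clock* thus rest on both series together.

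The amplitude of the fitted cosine was 146.5% of the mean for *Npas2*, 94.1% for *Arntl* and 40.8% for *Clock*. By this measure *Arntl* ranks 36 among the 1958 rhythmic genes and *Clock* 338. The order was the same in each series, at 151%, 100.3% and 40.1% in series 1 and at 142%, 90.0% and 41.6% in series 2. The ratio of the highest to the lowest value was 26.25 for *Arntl* and 2.46 for *Clock*. For *Arntl* it was 14.13 without the ZT6 sample of series 1.

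The profiles were next compared within samples, each gene as a percentage of its own mean. The difference between *Arntl* and *Clock* followed a 24 hr component with an F24 of 0.840 (permutation p = 0.00155, adjusted p = 0.00233 over 3 pairs). The difference (*Arntl* minus *Clock*) was −48.9 ± 8.49 percentage points (SD, n = 2) at ZT6 and 50.2 ± 24.7 points at ZT18, so that the relative troughs and tops of these genes differ in depth.

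The difference between *Clock* and *Npas2* had an F24 of 0.680 (permutation p = 6.2e-04, adjusted p = 0.00186 over 3 pairs). *Clock* was 94.9 ± 0.889 points (SD, n = 2) above *Npas2* at ZT14, and *Npas2* was above *Clock* at ZT22, where the difference was −169 ± 96.1 points. *Npas2* reached the minimum through ZT22 of series 1 alone, and without that sample the F24 was 0.812 (adjusted permutation p = 0.00332). The difference between *Arntl* and *Clock* and that between *Clock* and *Npas2* passed the test in each of 12 fits that left out 1 sample.

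For *Arntl* and *Npas2* the F24 of the difference was 0.379 (permutation p = 0.0413, adjusted p = 0.0413 over 3 pairs). This call was lost in 8 of the 12 fits without 1 sample, with an adjusted p of up to 0.264 (without ZT14 of series 2), and in the ratio on the log2(rpbp + 1) scale (adjusted p = 0.0832). It was kept with an F24 of 0.659 on the log2(rpbp + 0.1) scale (adjusted permutation p = 0.00826) and of 0.615 without both ZT2 samples (adjusted permutation p = 0.00335). Without ZT22 of series 1, the sample through which *Npas2* reached the minimum, it was 0.653 (adjusted permutation p = 0.00528). The difference between these 2 genes was 67.6 ± 23.7 points (SD, n = 2) at ZT14 and −125 ± 108 points at ZT22.

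**Figure D2:**
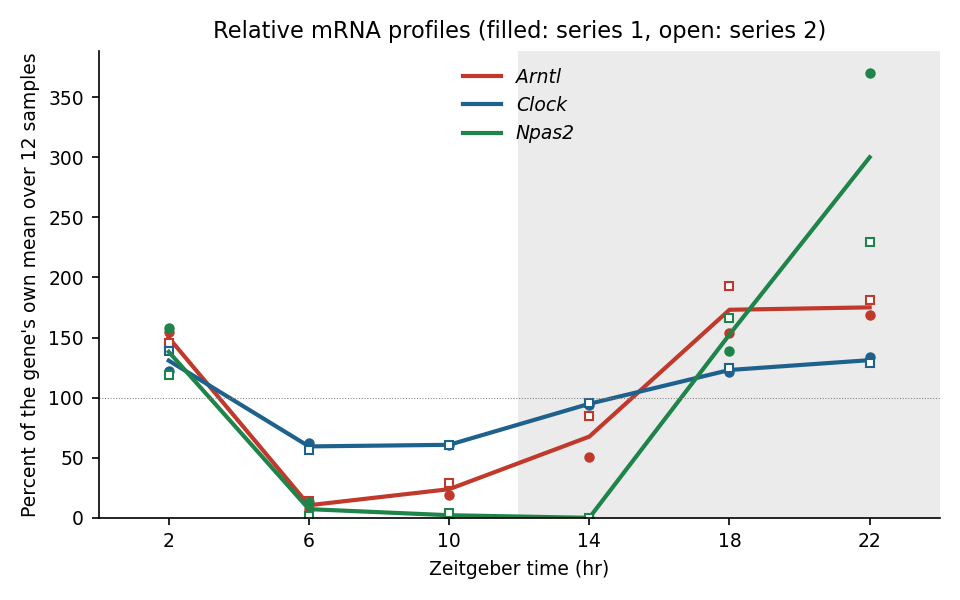
Signal as a percentage of the gene's own mean over 12 samples against zeitgeber time in hr; lines join the means of 2 samples, filled circles are series 1, open squares series 2, and grey marks darkness. *Clock* stays between 56.6% and 139%, *Arntl* falls to 7.33%, and *Npas2* runs from 0% to 370%.

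The phases, which are the peak times of the fitted cosine, lay within 1 hr of each other in the fit of rpbp over both series. The phase was ZT 21.05 ± 0.391 hr (SE) for *Arntl*, 21.25 ± 0.491 hr for *Clock* and 21.95 ± 0.583 hr for *Npas2*. In series 1 they were 21.49, 21.14 and 22.21 hr, and in series 2 they were 20.63, 21.35 and 21.58 hr, in the same order of genes. *Arntl* and *Clock* thus changed places between the series.

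*Npas2* came last in both series, although in series 2 it did not reach the minimum for expressed genes. It was 0.90 ± 0.702 hr (SE) after *Arntl* and 0.70 ± 0.762 hr after *Clock* in the fit of both series, and these SE take the genes as independent although they share samples. The neighbours in this order do not differ beyond their spread in this fit, and samples were 4 hr apart. The gaps were wider on a log scale, where the phases of *Arntl*, *Clock* and *Npas2* were 20.52, 20.99 and 22.08 hr with log2(rpbp + 1) and 20.39, 20.98 and 22.38 hr with log2(rpbp + 0.1). Of the 1958 rhythmic genes, 10.3% had a phase within 1 hr of *Arntl* and 11.2% within 1 hr of *Npas2*.

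The signal is given per exon base, so that levels of different genes can be set side by side. Sequences without a unique place in the genome were left out, which lowers the level of genes with exons that occur more than once, and this was not measured here. The exons of all isoforms were averaged, so that exons not used in liver lower a level, and this was not measured either. The mean over 12 samples was 28.64 ± 9.26 rpbp (SD) for *Clock*, 15.27 ± 11.11 rpbp for *Arntl* and 2.77 ± 3.29 rpbp for *Npas2*. Of all expressed genes, 57.4% had a lower mean than *Clock*, 35.4% a lower mean than *Arntl* and 0.265% a lower mean than *Npas2*.

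The order *Clock*, *Arntl*, *Npas2* held in each of the 12 samples. On the log2(rpbp + 1) scale *Arntl* was below *Clock* by a mean difference of −1.29 (SD 0.951, n = 12) and above *Npas2* by 2.17 (SD 0.820), and *Clock* was above *Npas2* by 3.46 (SD 0.972). The exact permutation test with 4096 sign patterns gave p = 4.883e-04 for each pair (two-sided; adjusted p = 4.883e-04 over 3 pairs), which is the smallest it can give. It takes the 12 samples as independent. With the 2 samples of each time point averaged, the same test gave an adjusted p of 0.03125 for each pair. The mean of *Clock* was 10.35 times that of *Npas2*, and that of *Arntl* was 5.52 times that of *Npas2* and 0.533 times that of *Clock*.

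The share of *Npas2* in the mRNA of *Clock* and *Npas2* together was 11.05% at ZT2, 1.98% at ZT6, 0% at ZT10, 0% at ZT14, 9.97% at ZT18 and 21.14% at ZT22 in series 1. In series 2 it was 7.61%, 0.246%, 0.685%, 0%, 11.40% and 14.68% at the same times. *Clock* mRNA was thus the larger part in every sample, and the samples of ZT22 were above all others.

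The share of *Npas2* averaged 6.56% ± 7.13 (SD, n = 12) over all samples and 17.9% ± 4.57 (SD, n = 2) at ZT22. Without the ZT22 sample of series 1, through which alone *Npas2* reached the minimum, the average was 5.24% and the F24 of the share was 0.905 (permutation p = 8.3e-04). With all 12 samples its 24 hr component had an F24 of 0.870 and a phase of 21.97 hr (permutation p = 2.9e-04, adjusted p = 5.8e-04 over 4 partner quantities). The exact permutation p was 0.0333 in series 1 and 0.10 in series 2 (n = 6).

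The summed signal of *Clock* and *Npas2* was between 16.24 rpbp at ZT6 of series 2 and 48.44 rpbp at ZT22 of series 1, with an F24 of 0.928 and a phase of 21.43 hr (permutation p = 1.1e-04, adjusted p = 4.4e-04). *Arntl* mRNA was below this sum in every sample. Its ratio to the sum was 0.0948 ± 0.0471 (SD, n = 2) at ZT6, 0.208 ± 0.0638 at ZT10, 0.379 ± 0.130 at ZT14, 0.669 ± 0.0841 at ZT18, 0.586 ± 0.0752 at ZT22 and 0.557 ± 0.0591 at ZT2. The ratio had an F24 of 0.816 and a phase of 20.37 hr (permutation p = 0.00138, adjusted p = 0.00138). The ratio of *Arntl* to *Clock* alone ran from 0.0628 to 0.822 (adjusted permutation p = 7.2e-04). In series 1 and series 2 alone (n = 6) the exact permutation p was 0.0333 and 0.117 for the sum. It was 0.183 and 0.0333 for the ratio to the sum, and 0.133 and 0.0667 for the ratio to *Clock*. *Npas2*, a part of the sum, reached the minimum only through ZT22 of series 1, where the sum was highest. The tests of the sum and of the ratio to it are thus given as a description, and neither was refitted without that sample.

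**Figure D3:**
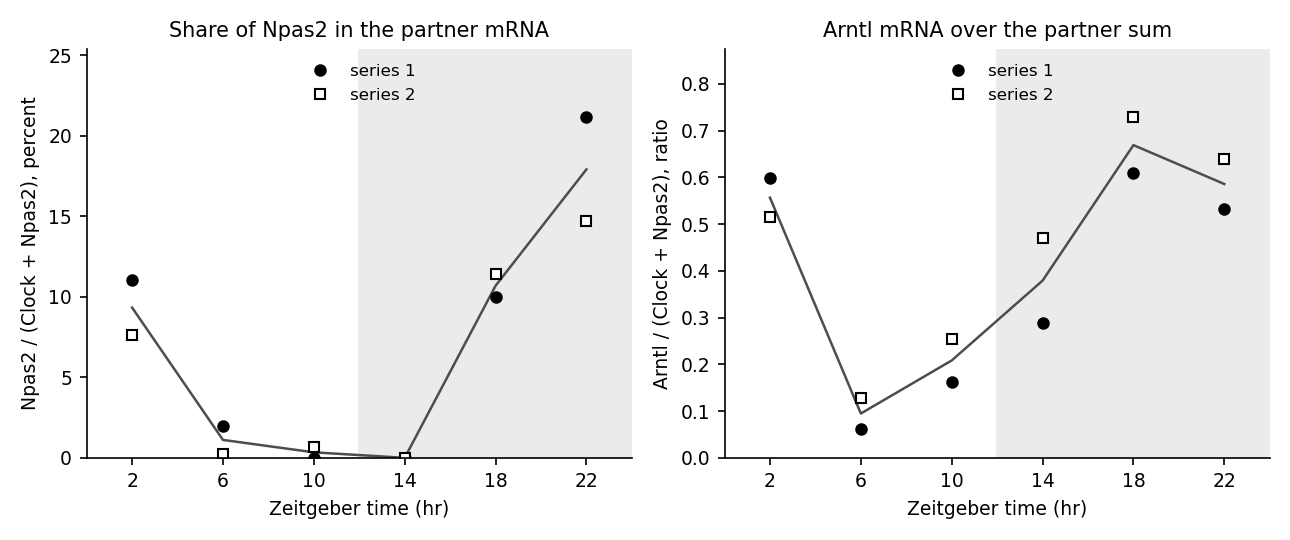
Left, share of *Npas2* in the summed signal of *Clock* and *Npas2*, in percent; right, ratio of *Arntl* to that sum; both against zeitgeber time in hr, with filled circles for series 1, open squares for series 2, a line through the means of 2 samples and grey for darkness. The share of *Npas2* is at most 1.98% from ZT6 to ZT14 and reaches 21.14% at ZT22, and the ratio of *Arntl* is lowest at ZT6 (0.0948) and highest at ZT18 (0.669).

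These values come from whole liver, in which fewer cells of a type and less RNA per cell cannot be told apart. The 5 hepatocyte markers were all expressed, at a summed signal of 120958 to 154241 rpbp from ZT6 to ZT22 and of 79346 to 82302 rpbp at ZT2. *Alb*, with a mean of 97960 rpbp, makes up most of this sum, and at ZT2 3 of the 5 markers were below and 1 was above all other samples. The 5 Kupffer cell markers summed to 329.4 to 330.2 rpbp at ZT2 and to 180.2 to 258.8 rpbp at the other times, with 3 of 5 above all other samples at ZT2. The 4 endothelial markers (56.12 to 73.96 rpbp) and the 4 stellate cell markers (184.6 to 241.2 rpbp) overlapped between ZT2 and the other times. The 3 bile duct markers summed to 3.32 to 15.20 rpbp, the 3 lymphocyte markers to 3.12 to 9.76 rpbp and the 2 erythroid markers in the table to 294.9 to 856.6 rpbp over all samples. Among all these markers *Alb*, *Cps1* and *Sox9* were rhythmic, and none was at 0 in all samples. Without both ZT2 samples, a check chosen after seeing the data, the F24 was 0.950 for *Arntl* and 0.989 for *Clock* and both calls held, while the phases were 20.39 and 20.13 hr. *Npas2*, as a description, then had an F24 of 0.856 and a phase of 22.41 hr.

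The replicate samples of a time point correlated across genes at 0.975 to 0.987 (Pearson's r). Samples of different times correlated at 0.92 to 0.981. The size factors lay between 0.971 and 1.04. The signal is a coverage and not a count, so that no interval for counting error is given.

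The REV-ERB repressors, which act on ROR elements, peaked at other times than the activators. Of 7 receptor and corepressor genes that act on these elements, 6 were in the table and expressed and 3 were rhythmic, all strongly, beside 19.2% of all expressed genes. The median F24 of the list was 0.658, against 0.310 for all expressed genes. *Nr1d1*, the REV-ERB alpha repressor, went from 3.96 ± 0.170 rpbp (SD, n = 2) at ZT18 to 125 ± 23.6 rpbp at ZT6, with a phase of 5.33 hr (permutation p = 1e-04, the smallest that 10000 orders can give; adjusted p = 0.0115). Its highest time point was thus the lowest of *Arntl* and *Clock*.

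*Nr1d2*, the REV-ERB beta repressor, went from 15.54 ± 0.707 rpbp (SD, n = 2) at ZT18 to 99.48 ± 5.49 rpbp at ZT6 and had a phase of 8.05 hr (permutation p = 4e-04, adjusted p = 0.0208). *Rora* (F24 0.290, permutation p = 0.222) and the corepressor genes *Ncor1* (F24 0.657, permutation p = 0.0152, amplitude 1.31) and *Hdac3* (F24 0.430, permutation p = 0.0824) were not called.

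Of the 8 repressors of CLOCK:BMAL1, all were in the table, 7 were expressed and 5 were strongly rhythmic, beside 7.89% of all expressed genes. Their median F24 was 0.849, against 0.310 for all expressed genes. *Per3* (9.69 hr), *Per1* (11.32 hr) and *Per2* (12.22 hr), the partners of the cryptochromes, and *Ciart* (9.19 hr), listed as *Gm129*, had their fitted peaks between 9.19 and 12.22 hr. *Cry1*, a cryptochrome repressor, came nearest to the activators with a phase of 17.29 hr, and went from 6.14 ± 0.141 rpbp (SD, n = 2) at ZT6 to 50.18 ± 1.16 rpbp at ZT18. The adjusted p of these 5 genes lay between 0.0115 and 0.0451.

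*Cry2* (permutation p = 0.0538) and *Bhlhe40* (permutation p = 0.257), listed as *Bhlhb2*, were not called. *Bhlhe41*, listed as *Bhlhb3*, was under the minimum and had 6.54 ± 1.67 rpbp (SD, n = 2) at ZT6.

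The PAR bZIP factors and *Nfil3*, which bind the same D-box elements as activators and as a repressor, were all 4 expressed and all rhythmic (19.2% of all expressed genes), 3 of them strongly (7.89%). *Dbp*, a direct E-box target, went from 1.94 ± 0.651 rpbp (SD, n = 2) at ZT22 to 217 ± 34.3 rpbp at ZT6 with a phase of 7.36 hr (permutation p = 0.0015, adjusted p = 0.0358). *Tef* had a phase of 9.96 hr (adjusted p = 0.04996) and *Hlf* of 11.01 hr (permutation p = 0.0455, adjusted p = 0.179). *Nfil3*, the repressor, had a phase of 20.12 hr (permutation p = 3e-04, adjusted p = 0.0176) and shared the lowest and highest time points of *Arntl* and *Clock*, with 18.84 ± 2.43 rpbp at ZT6 and 82.68 ± 6.62 rpbp at ZT22.

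Of 16 other bHLH-PAS genes, 13 were in the table, 7 were expressed and 1 was rhythmic, beside 19.2% of all expressed genes, so that this count says nothing about the family. *Ahr*, the dioxin receptor, went from 20.22 ± 1.16 rpbp (SD, n = 2) at ZT2 to 40.78 ± 1.10 rpbp at ZT14 (permutation p = 0.0363, adjusted p = 0.162). This call was lost with the adjusted p, in limma and without both ZT2 samples. *Arntl2*, the paralog of *Arntl*, was under the minimum with 0.90 ± 0.255 rpbp at ZT2 as its highest time point. *Arnt2*, *Ahrr*, *Hif3a*, *Npas1* and *Npas3* were also under the minimum, with at most 0.180 rpbp at any time point.

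*Arnt*, the common partner of this family, was at 14.38 ± 1.73 to 16.98 ± 0.0849 rpbp (SD, n = 2) over the time points (permutation p = 0.132). The hypoxia factors *Hif1a* (permutation p = 0.0232, amplitude 1.43) and *Epas1* (permutation p = 0.141) and the coactivators *Ncoa1* (permutation p = 0.0274, amplitude 1.42), *Ncoa2* (permutation p = 0.0441, amplitude 1.38) and *Ncoa3* (permutation p = 0.282) were not called.

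Of 12 coactivators and modifying enzymes of CLOCK:BMAL1, 10 were expressed and 0 were called rhythmic, beside 19.2% of all expressed genes, with 1 at an unadjusted permutation p below 0.05 and 0 called in limma. The 1 gene was *Csnk1d*, a casein kinase, which was under the limit for the amplitude, at 43.66 ± 0.141 rpbp (SD, n = 2) at ZT6 and 53.42 ± 0.368 rpbp at ZT18 (permutation p = 0.0227, amplitude 1.23). The acetyltransferase genes *Ep300* (permutation p = 0.277), *Crebbp* (permutation p = 0.184) and *Kat2b* (permutation p = 0.357) and the deacetylase gene *Sirt1* (permutation p = 0.186) did not pass. *Gsk3b*, *Csnk2a1*, *Kdm5a*, *Wdr5* and *Med1* had a permutation p of 0.114 to 0.980. *Csnk1e* and *Kmt2a* were under the minimum.

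The likeness of profiles was measured as the root mean square difference of the mean-scaled values over the 12 samples, among the rhythmic genes. The profile closest to *Arntl* was that of *bmal1b*, a second row of the table whose name RefSeq gives as a synonym of *Arntl* (2.06% of the mean). It ran from 1.28 to 31.80 rpbp and was 1.08 to 1.14 times the *Arntl* row in every sample. Whether both rows count the same reads was not tested, and *bmal1b* was not counted as a further gene of the group.

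Among the 5 closest were also *Chka* (23.8%), *Clpx* (23.9%) and *Dtx4* (30.3%), with phases from 20.48 to 21.60 hr. *Clock* ranked 35 by its likeness to *Arntl* (41.2%) and *Npas2* 788 (67.9%). Closest to *Clock* were *Slc11a2* (10.2%), *Rfxank* (10.3%), *Lrp5* (10.6%), *Map3k7ip2* (10.6%) and *Whsc2* (10.9%), with phases from 20.80 to 21.98 hr and cosine amplitudes from 30.8% to 37.8% of the mean. From *Clock*, *Arntl* ranked 1105 and *Npas2* 1910.

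Closest to *Npas2* were *Loxl4* (42.7%), *Slc34a2* (45.9%), *Elovl3* (55.3%) and *Pitx3* (58.1%), with *Arntl* at rank 10 (67.9%) and *Clock* at rank 80 (91.4%). Of these neighbours of *Npas2*, *Elovl3* had a mean of 681 rpbp, while *Loxl4*, *Slc34a2* and *Pitx3* had means from 3.92 to 6.06 rpbp.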

How the data were processed

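Poly(A) RNA of 12 mouse liver samples (6 time points, 2 series) was sequenced by the authors after TruSeq library preparation. Per the labels and the study's methods, CASAVA 1.8 and TopHat (version not given in the sources used here) were used with mm9, and sequences with a unique place were kept. The authors flattened the exons of all isoforms, summed the base coverage regardless of strand and averaged it over the exon length. Deposited is this signal (mean coverage) on a scale of 10000000 uniquely mapped sequences and was multiplied by 4. Further deposited columns hold the authors' own F24 score (a fraction), phase and p-value, and were not used. The columns named ZT20 are the ZT22 samples of the labels.

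F24 and phase came from a 24 hr Fourier component of the 12 concatenated values. The p came from 10000 random orders (seed 1), with Benjamini-Hochberg adjustment over 10198 expressed genes. For a single value, 100000 random orders, or all orders or sign patterns (exact), were used. In limma, a cosine and a sine were fitted to log2(rpbp + 1). The genes named are the 3 activators, the genes of the 5 lists, and the 5 rhythmic genes closest to each activator, and some of these are not reported here. The members and lists were chosen with earlier results of these data known. Of the alternatives, only the one without ZT2 was added after seeing the data. Depth per sample is not given by the table used here. Nascent RNA and ChIP-Seq data were not analysed here. Software was R 4.3.3 with limma 3.58.1, and Python 3.11.15 with pandas 2.3.3, scipy 1.17.1, matplotlib 3.10.9 and numpy 2.4.6.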

Additional observations from a re-analysis of the deposited data

How the results depend on the processing

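Of 356 values under alternatives, 310 stayed the same, 14 lost the call, 32 moved and 0 changed sign. For a tested value, the same means that the call was kept. For a phase, an amplitude or the mean share it means a shift smaller than the SD between the 2 series. That limit is easily met when 1 of these series is left out. For a count of genes it means a change within a fixed factor. The rhythmic genes numbered 505 with the adjusted p and 828 in limma, against 1958, and 284 to 360 in 1 series alone. In limma the adjusted p was 0.00315 for *Arntl* and 0.00309 for *Clock*. The F24 of *Arntl* was 0.904 to 0.951 and that of *Clock* 0.823 to 0.940 with a sample or a series left out, and both lost their call in each series alone (exact permutation p of up to 0.0667 and 0.183). Those fits gave an amplitude of 14.13 to 26.25 for *Arntl* and of 2.20 to 2.46 for *Clock*, a phase of 20.72 to 21.52 hr for *Clock*, an F24 of 0.853 to 0.908 for the share of *Npas2* and a mean share of 5.24% to 7.36%. *Npas2* has no call with a minimum of 16 rpbp or in series 2 alone, where it is under the minimum, and its values in that series are a description.

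The phase of *Arntl* was 20.39 hr on log2(rpbp + 0.1) and 20.39 hr without both ZT2 samples. That of *Clock* was 21.09 hr with size factors, 20.99 hr on log2(rpbp + 1), 20.98 hr on log2(rpbp + 0.1) and 20.13 hr without ZT2, and that of *Npas2* was 22.41 hr without ZT2. For *Arntl* and *Npas2*, the F24 of the profile difference was 0.417 on the log2(rpbp + 1) scale (adjusted permutation p = 0.0832) and 0.260 to 0.653 with a sample left out. Without 1 series, the lists held 0 rhythmic other bHLH-PAS genes, 1 to 2 ROR receptors and corepressors, 1 to 2 repressors and 0 to 1 PAR bZIP factors or *Nfil3*. *Ahr* was lost, leaving 0, with the adjusted p, in limma, without ZT2 and with the replicate block, and with no minimum 1 coactivator or enzyme was called. The cause of these changes was not tested, other than that a series alone holds 6 values.

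What the samples of a series share beyond their number was not tested. The correlations across genes of their deviations from the time point means were −0.153 to 0.206 (median −0.0258) between time points. These do not measure a shift of a single gene between the series. With the replicate block 1786 genes were rhythmic, 1728 of them among the 1958, the F24 was 0.925 for *Arntl*, 0.872 for *Clock* and 0.838 for *Npas2*, and the 3 profile differences had adjusted permutation p-values of 0.00530, 0.0448 and 0.00530.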
